A study of Mus musculus with 6 samples.

Results

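Homeobox factors of the Hoxa cluster, their Meis and Pbx partners, and the zinc finger factor Mecom were followed in mouse leukemia cells given an LSD1 inhibitor. The set was 8 genes chosen by name, Hoxa5, Hoxa7, Hoxa9, Hoxa10, Meis1, Pbx2, Pbx3 and Mecom, out of 15035 rows of the table. Rows were found for 4 of them, Meis1, Pbx2, Pbx3 and Mecom, and the 4 Hoxa members had no row and were not analysed here. Bone marrow cells of the BALB/c strain are described as leukemia cells and carried retroviral mutant CSF3R, a growth factor receptor of the neutrophil lineage, and retroviral mutant CEBPA, a myeloid transcription factor. Both groups carried both transgenes. The control group was cultured with DMSO, the solvent, and the other group with GSK-LSD1 at 4 nM, which blocks the histone demethylase LSD1, each for 48 h, with 3 libraries per group. Nothing in the labels ties a library to its own culture, clone or animal, and each p-value therefore reflects library-to-library spread only, which may be technical.

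HOX proteins bind DNA through a homeodomain and gain specificity by pairing with PBX and MEIS proteins, which belong to the TALE class of homeodomain factors. HOXA9 and MEIS1 are a classical pair of leukemia drivers: they are high in normal stem and progenitor cells, are switched off during myeloid maturation, and stay on in leukemias with rearranged KMT2A or mutant NPM1. MECOM, also known as EVI1, is a zinc finger regulator of blood stem cells that is overexpressed in a high-risk form of myeloid leukemia.

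The libraries held between 9572638 and 10199533 reads, taking the lowest step of the values in a library as 1 read, and the values below are these reads divided by a scaling factor per library. This reading is less sure for DMSO replicates 2 and 3, whose steps of 0.9909 and 0.9955 lie close to 1, and every number of reads given here rests on it. All 7 myeloid markers looked at had rows, with summed values of 15752 to 17388 in DMSO and 18563 to 19097 in GSK-LSD1 libraries. Of these 7, 4 rose: Csf3r, Ptprc, Mpo and Spi1, with log2 fold changes of 2.03, 0.59, 0.28 and 0.23. Cebpa did not pass (adjusted p = 0.734 by limma). Without DMSO replicate 3 it was called lower, with a log2 fold change of -0.13 (limma adjusted p = 0.00868). Its sign was positive without DMSO replicate 1 (0.04) or DMSO replicate 2 (0.01), and neither passed. The granule protease genes Elane and Prtn3 fell, with log2 fold changes of -0.92 and -0.67 (adjusted p = 6.98e-06 and 8.7e-13 by limma). CSF3R and CEBPA were also the transgenes, and whether transgene reads enter the values of Csf3r and Cebpa is not known. Rows were found for 2 of 8 stromal markers, Col1a1 and Pdgfrb, whose sum was 250 to 254 with DMSO and 333 to 357 with GSK-LSD1. T cell markers (2 of 6 with a row) summed to at most 12.7 and B cell markers (2 of 5) to at most 5.10 in any library. Of 5 endothelial markers only Pecam1, which blood cells also express, had a row, at 3531 to 4002 and 4334 to 4443. The 4 red cell markers with a row fell, from a sum of 139 to 189 to a sum of 20.4 to 30.0. Megakaryocyte markers (4 of 5 with a row) summed to 1895 to 2022 with DMSO and 1706 to 1757 with GSK-LSD1. Of the 3 tested, Gp1ba rose by 0.87 on the log2 scale, while Itga2b fell by 0.21 and Pf4, whose call is qualified below, by 0.43. Whether these other markers bear on the members was not tested.

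Promoter windows, 250 bases before to 50 bases after an annotated start, are shown for the near-silent Meis1, for Pbx2, the member with the highest level, and for 2 starts of Mecom, whose transcripts the gene-level values do not separate. They come from RefSeq on GRCm38.p6, are written 5′ to 3′ on the gene's strand, and matched 3 of the 4 members with a row. The annotated spans of Mecom and Pbx2 given below begin further upstream, so the windows do not cover every annotated start. Capitals mark matches on either strand to TGACAG, a core bound by MEIS proteins, or to TGATNNAT, a core bound by PBX and HOX proteins together.
Meis1, chr11:19018920-19019219, minus strand: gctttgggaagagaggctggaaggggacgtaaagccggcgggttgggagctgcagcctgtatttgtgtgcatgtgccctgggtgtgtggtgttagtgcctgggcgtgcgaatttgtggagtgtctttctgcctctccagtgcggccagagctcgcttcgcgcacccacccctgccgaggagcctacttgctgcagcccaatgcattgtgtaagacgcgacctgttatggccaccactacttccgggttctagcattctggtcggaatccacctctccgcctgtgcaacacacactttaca
Pbx2, chr17:34592009-34592308, plus strand: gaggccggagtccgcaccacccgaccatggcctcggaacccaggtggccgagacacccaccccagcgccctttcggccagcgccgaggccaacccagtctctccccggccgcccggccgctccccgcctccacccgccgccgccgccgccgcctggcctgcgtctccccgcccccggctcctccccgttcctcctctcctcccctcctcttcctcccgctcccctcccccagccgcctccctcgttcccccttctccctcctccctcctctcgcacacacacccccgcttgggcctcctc
Mecom, upstream start, chr3:30509710-30510009, minus strand: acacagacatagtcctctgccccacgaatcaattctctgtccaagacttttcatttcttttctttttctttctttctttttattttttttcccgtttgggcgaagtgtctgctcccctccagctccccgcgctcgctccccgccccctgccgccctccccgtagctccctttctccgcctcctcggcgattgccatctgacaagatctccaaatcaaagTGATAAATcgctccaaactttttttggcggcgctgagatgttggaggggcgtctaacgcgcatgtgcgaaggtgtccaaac
Mecom, downstream start, chr3:30013155-30013454, minus strand: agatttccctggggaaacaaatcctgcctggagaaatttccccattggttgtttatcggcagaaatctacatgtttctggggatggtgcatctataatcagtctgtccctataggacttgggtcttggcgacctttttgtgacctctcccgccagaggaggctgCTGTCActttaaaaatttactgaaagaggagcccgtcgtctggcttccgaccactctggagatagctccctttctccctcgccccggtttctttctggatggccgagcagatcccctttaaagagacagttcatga

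The Meis1 and Pbx2 windows held neither motif, the upstream Mecom window held 1 match to TGATNNAT and the downstream one held 1 match to TGACAG. Among 32851 promoter windows of this length, 19.2% held TGACAG and 8.85% held TGATNNAT. The Pbx2 window had 29 CpG dinucleotides and the Meis1 window 15, against a median of 7 over all windows. The Mecom windows had 19 and 9. These counts describe letters and not binding.

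None of the 3 members that could be tested, Pbx2, Pbx3 and Mecom, passed the test for a change with GSK-LSD1, while Meis1 was near zero in both groups. The test took rows that reached a value of 10 in 3 or more libraries and used limma on log2(value + 1) and Benjamini-Hochberg adjustment over all 11588 genes tested. In that test 41.1% of genes passed an adjusted p of 0.05, 20.6% higher and 20.5% lower. Of the 3 tested members 0 passed, and 0 had an unadjusted p under 0.05. Fold changes below are GSK-LSD1 against DMSO on the log2(value + 1) scale. In bulk RNA, fewer cells that express a gene and less RNA per cell cannot be told apart.

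**Figure D1:**
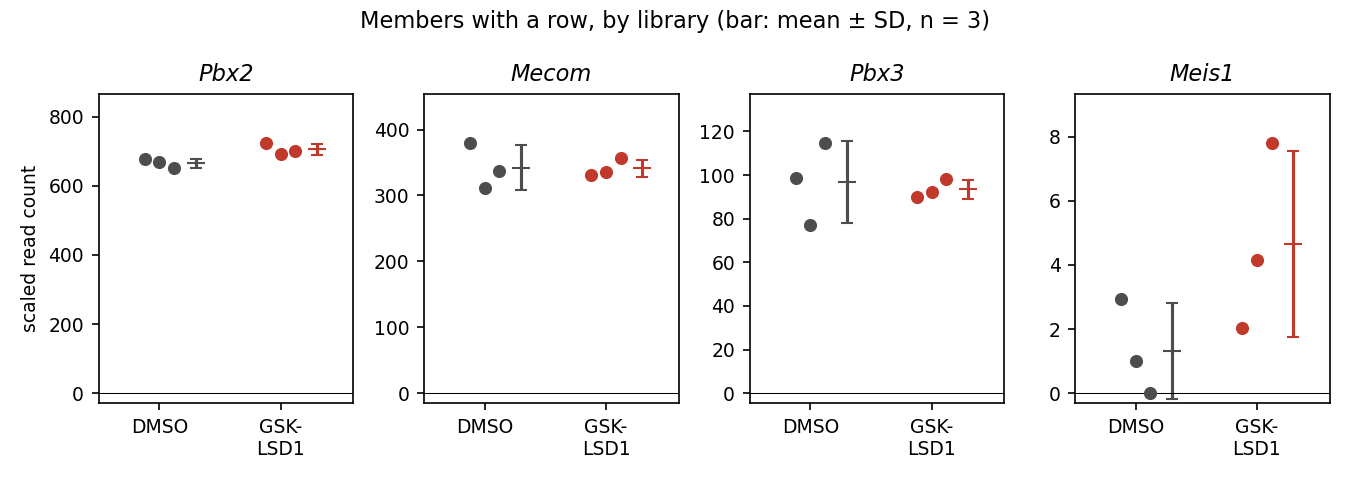
Scaled read counts (vertical axes, which differ between panels) of Pbx2, Mecom, Pbx3 and Meis1 in the 3 DMSO (grey) and 3 GSK-LSD1 (red) libraries, 1 point per library, with mean ± SD beside them. The groups are apart only for Pbx2, at 651 to 677 against 691 to 722, and Meis1 stays below 8 in every library.

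Pbx2 encodes a widely expressed TALE partner of HOX proteins (chromosome 17, 34591266 to 34597400, plus strand, GRCm38). Its scaled values in the DMSO libraries were 677, 668 and 651, and in the GSK-LSD1 libraries 722, 691 and 701. Every GSK-LSD1 library was above every DMSO library, as was the case for 24.7% of all tested genes, against 24.8% with every GSK-LSD1 library lower and 49.5% with no overlap in either direction. The mean was 665 ± 13.1 with DMSO and 705 ± 15.8 with GSK-LSD1 (SD, n = 3), a log2 fold change of 0.08 ± 0.0587 (standard error) and an adjusted p of 0.267 by limma. The 95% interval reached from a fold of 0.975 to a fold of 1.15. An exact two-sided permutation test over the libraries gave p = 0.1, the smallest it can give with 3 against 3. Exons of Pbx2 share 227 bases with the neighbouring gene Gpsm3 on the same strand, and Gpsm3 rose from 992 ± 67.4 to 1152 ± 2.93. The rise of Gpsm3 was not looked at under other settings. How reads of the shared bases were divided between the pair is not known.

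Pbx3 encodes a PBX protein that is known as a cofactor of HOXA9 in leukemia (chromosome 2, 34171457 to 34373142, minus strand). The DMSO libraries had scaled values of 98.6, 77.3 and 114, and the GSK-LSD1 libraries had 89.8, 92.1 and 98.3. The DMSO libraries enclosed all GSK-LSD1 libraries and were more spread out, with means of 96.8 ± 18.7 and 93.4 ± 4.40. The log2 fold change was -0.03 ± 0.141 (standard error), which did not pass (limma adjusted p = 0.869). Its interval was the widest of the 3 tested members, from a fold of 0.801 to a fold of 1.19. The sign turned without DMSO replicate 3, to 0.10, and the value was -0.19 without DMSO replicate 2 and -0.20 with quantile scaling, none of them past the threshold.

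Meis1 encodes the TALE factor that accompanies HOXA9 in leukemia (chromosome 11, 18879817 to 19018985, minus strand). It had 3, 1 and 0 reads in the DMSO libraries and 2, 4 and 8 reads in the GSK-LSD1 libraries, in scaled values 1.31 ± 1.49 and 4.66 ± 2.91. GSK-LSD1 replicate 1 lay below DMSO replicate 1, so the groups overlapped, and 3 reads correspond to a scaled value of 2.92 to 3.11. Over the groups this was 4 reads against 14, 3.62 times as many after correction for depth, and the 95% interval of that ratio, 1.14 to 15.1, covers counting error only. Meis1 was below the filter and has no adjusted p in the main test. With every row of the table tested its log2 fold change was 1.38 with an adjusted p of 0.0585 by limma. That difference depended on the pseudocount, at 1.75 with 0.5 and 0.60 with 5, and was 0.88 without DMSO replicate 3. An exact two-sided permutation test over the libraries gave p = 0.2. Exons of Meis1 also overlap the gene models Gm16140 on the other strand and Gm37818 on the same strand, over 896 and 1029 bases.

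Mecom lies on chromosome 3 (29951296 to 30548008, minus strand). The scaled values were 379, 311 and 336 in the DMSO libraries and 332, 335 and 356 in the GSK-LSD1 libraries. All GSK-LSD1 libraries lay inside the range of the DMSO libraries. The means were 342 ± 34.2 and 341 ± 13.3, and the log2 fold change was 0.00 ± 0.0802 (standard error, limma adjusted p = 0.996). The interval reached from a fold of 0.893 to a fold of 1.12. This value was so near 0 that its sign was positive, and its size at most 0.08, with the same total per library or without DMSO replicate 1, GSK-LSD1 replicate 1 or GSK-LSD1 replicate 2.

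**Figure D2:**
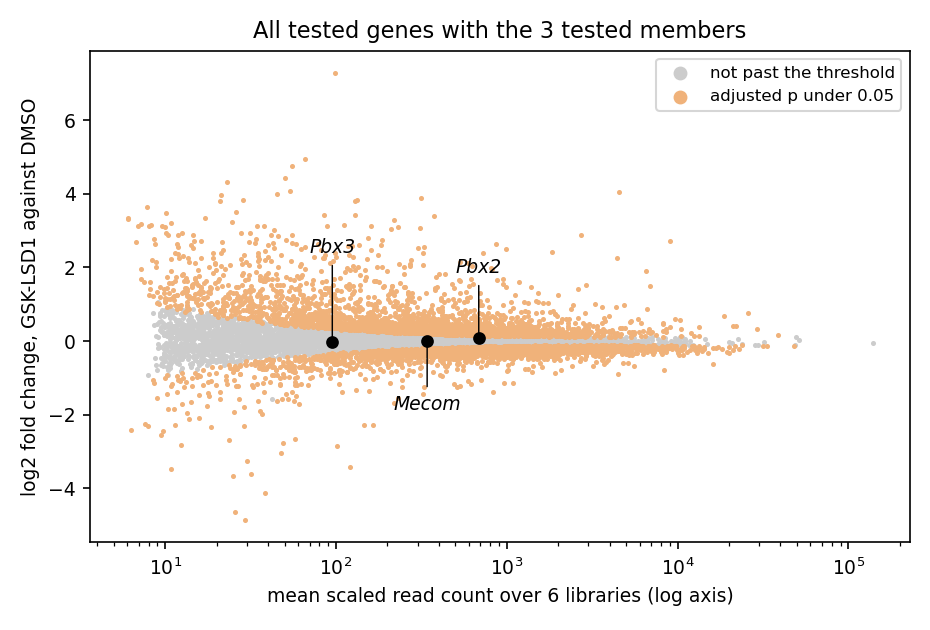
Log2 fold change (vertical axis) against the mean scaled read count over 6 libraries (horizontal log axis) for the 11588 tested genes, with genes past the threshold in orange and the 3 tested members in black. Pbx2, Mecom and Pbx3 lie at 0.08, 0.00 and -0.03, inside the grey band of genes not past the threshold.

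Levels of different genes were set side by side per kilobase of annotated exons. Pbx2 had 183 ± 3.59 scaled counts per kilobase with DMSO, Mecom 27.5 ± 2.76, Pbx3 15.8 ± 3.05 and Meis1 0.124 ± 0.141. With GSK-LSD1 the levels were 194 ± 4.35, 27.4 ± 1.07, 15.3 ± 0.720 and 0.442 ± 0.276, in the same order. Each neighbouring pair in that order was further apart than its SDs. The lengths join the exons of all annotated transcripts, 12427 bases for Mecom and 3640 for Pbx2, so levels of genes with many long transcripts are understated.

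The wider Hox families had few reads in these libraries. Rows were found for 1 of 11 Hoxa genes, 6 of 10 Hoxb genes, 1 of 9 Hoxc genes and 0 of 9 Hoxd genes, and the others were not analysed here. The lowest sum of reads of any row over the 6 libraries was 2, a sum that 493 rows had. Hoxa4 had 2, 0 and 0 reads with DMSO and 1, 2 and 1 with GSK-LSD1. Hoxb4, a factor known for expanding blood stem cells, was the only Hox gene with a row whose mean was above 50: its scaled values were 65.4, 72.3 and 80.6 with DMSO and 51.0, 76.6 and 85.6 with GSK-LSD1. The groups overlapped, the log2 fold change was -0.06 (limma adjusted p = 0.796), and the sign turned without DMSO replicate 3 (0.01) or GSK-LSD1 replicate 1 (0.16).

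Hoxb3 was the other Hox gene that could be tested and rose, from 6.27 ± 4.17 to 14.2 ± 6.65. Its log2 fold change was 1.13 ± 0.423 (standard error, limma adjusted p = 0.0302), and its groups overlapped, since DMSO replicate 3 had 10.9 and GSK-LSD1 replicate 1 had 9.18. Leaving out DMSO replicate 1 or 2 ended the call (adjusted p = 0.0599 and 0.165), as did leaving out GSK-LSD1 replicate 2 or 3 (0.225 and 0.0515). Quantile scaling (0.101) and a fit with no mean-variance trend (0.114) also ended it. Reads of Hoxb6 were unequal within a group, with 12 of its 16 GSK-LSD1 reads in replicate 2, the library in which Hoxb3 was also highest. Hoxb5, Hoxb7, Hoxb8 and Hoxc4 had at most 4 reads in any library.

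**Figure D3:**
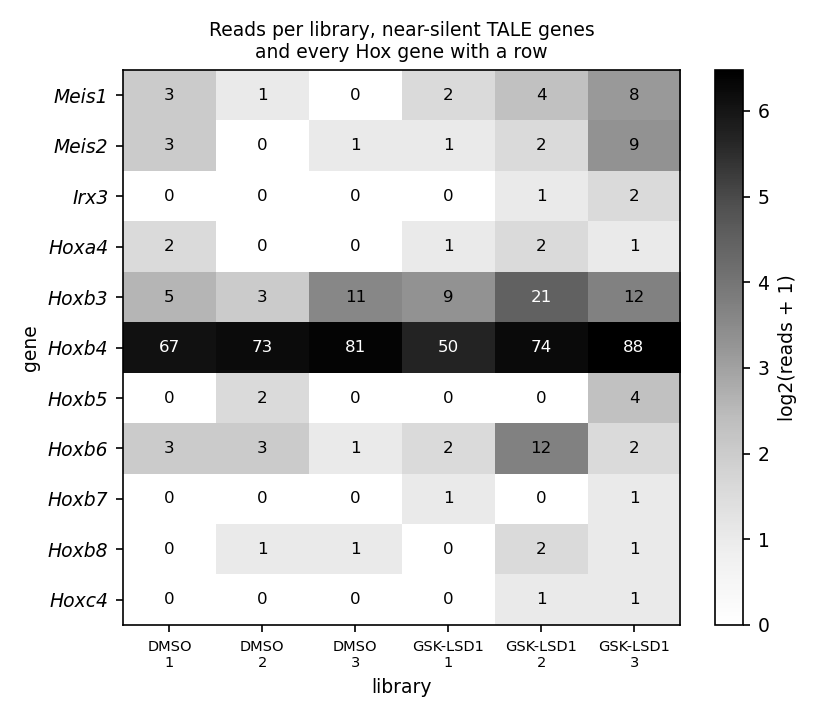
Reads per library (numbers in the cells, shading on a log2 scale) of Meis1, of 2 other near-silent TALE genes and of the 8 Hox genes with a row. Hoxb4, with 50 to 88 reads per library, is the only dark row, followed by Hoxb3 with 3 to 21.

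Among the other TALE genes 8 of 12 had a row and 5 were tested: 1 rose, 1 fell and 3 did not pass, with a median log2 fold change of -0.10 against -0.01 over all genes tested. The share called was 40%, against 41.1% of all genes tested. Tgif1, which encodes a repressor that limits TGF-beta signalling, had values of 661, 637 and 658 with DMSO and 847, 972 and 801 with GSK-LSD1. All GSK-LSD1 libraries were higher, and the log2 fold change was 0.42 (adjusted p = 1.67e-06 by limma). Its relative Tgif2 went the other way, from 192 ± 17.7 to 155 ± 6.70, a log2 fold change of -0.30 (adjusted p = 0.0182). The call of Tgif2 was lost without DMSO replicate 2 (adjusted p = 0.124) or GSK-LSD1 replicate 3 (0.0735). Pknox1, a relative of the MEIS proteins, was 515 ± 38.0 and 479 ± 10.6 and did not pass (adjusted p = 0.250). Meis3 and Pbx4 had means under 21 and did not pass. Meis2 and Irx3 were near zero, with means of at most 3.95.

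Partners of Mecom were mostly well expressed. Of 8 genes 1 rose, 3 fell and 4 did not pass, with a median of -0.02. The share called was 50%, against 41.1% of all genes tested. Prdm16, the closest relative of Mecom and also an oncogene of myeloid leukemia, was 102 ± 13.8 and 105 ± 7.96, and its log2 fold change of 0.05 (limma adjusted p = 0.776) became -0.10 with quantile scaling and -0.03 without DMSO replicate 2. The gene for SMAD3, a TGF-beta signal carrier that MECOM can repress, rose from 32.6 ± 6.27 to 55.0 ± 8.75 (Smad3, adjusted p = 0.00266). The corepressor gene Ctbp2 fell by 0.21, the histone methyltransferase gene Suv39h1 by 0.17 and the deacetylase gene Hdac1 by 0.14 on the log2 scale, with adjusted p-values of 0.0265, 0.00703 and 0.0271. Each of these 3 calls was lost without at least 1 library: Ctbp2 without DMSO replicate 2 or 3 or GSK-LSD1 replicate 2 or 3 (adjusted p = 0.0600 to 0.0974), Suv39h1 without GSK-LSD1 replicate 1 (0.0544), and Hdac1 without DMSO replicate 2 or GSK-LSD1 replicate 2 or 3 (0.0551 to 0.107). Without the mean-variance trend Suv39h1 (0.0688) and Hdac1 (0.0559) lost theirs, and Hdac1 also with quantile scaling (0.0509) and the same total per library (0.0600), so that without DMSO replicate 2, GSK-LSD1 replicate 2, GSK-LSD1 replicate 3 or the trend 1 of the 8 fell. Ctbp1, Ehmt1 and Ehmt2 had log2 fold changes of -0.07, 0.09 and 0.02 and did not pass.

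**Figure D4:**
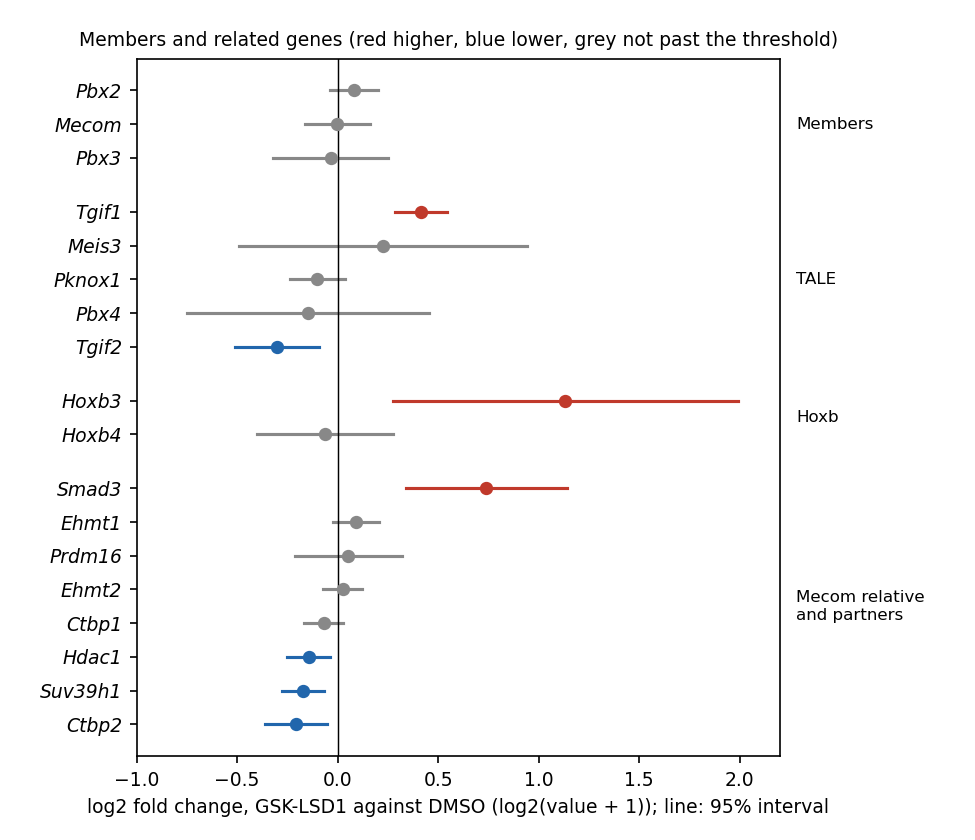
Log2 fold changes (points) with 95% intervals (lines) of the 3 tested members, of the tested TALE and Hoxb genes and of the relative and partners of Mecom, with genes past the threshold in red (higher) or blue (lower). The intervals of Pbx2, Mecom and Pbx3 cross 0, and Hoxb3 has the widest interval.

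Most genes listed as activators of Hoxa transcription were expressed in both groups. Of 24 listed activators 19 had a row, and all 19 were tested: 7 rose, 2 fell and 10 did not pass, with a median log2 fold change of -0.05. The share called was 47.4%, against 41.1% of all genes tested. The 5 with no row, Cdx1, Cdx2, Cdx4, Hoxa-as2 and Hottip, were not analysed. Kmt2a, the histone methyltransferase that maintains Hoxa expression, rose from 1010 ± 137 to 1340 ± 99.6 (log2 fold change 0.41, adjusted p = 4.03e-06 by limma). The elongation factor genes Aff4, Aff1 and Mllt3 rose with log2 fold changes of 0.40, 0.37 and 0.60. Men1, which encodes menin, the adaptor of KMT2A, fell from 1190 ± 77.7 to 979 ± 13.7 (adjusted p = 8.35e-05). Npm1, linked to HOXA9 above in its mutant form only, fell by 0.22. The call of Npm1 was lost without the mean-variance trend (adjusted p = 0.0935), where 5 of the list rose and 1 fell, and without DMSO replicate 3 the counts were 6 and 4.

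Of 19 Polycomb genes and modifiers of the Polycomb mark, the complexes that keep Hox clusters silent, 8 rose, 1 fell and 10 did not pass. Their median was 0.12, and 47.4% were called, against 41.1% of all genes tested. Without DMSO replicate 2, or without the mean-variance trend, 5 rose. Asxl1 was called in 6 of 14 alternatives and Bmi1 in 10 of 14. The 8 include Kdm6a and Kdm6b, which remove the mark. Kdm6a lost its call without DMSO replicate 2 or GSK-LSD1 replicate 1 (adjusted p = 0.0816 and 0.0673), Kdm6b without DMSO replicate 3 (0.121), and both without the mean-variance trend (0.0943 and 0.129). The largest rises were those of Ezh1, Cbx2, Rnf2 and Eed, with log2 fold changes of 0.35, 0.35, 0.27 and 0.23. Suz12 fell by 0.16, and its call was lost without DMSO replicate 1 (adjusted p = 0.0677) and without the mean-variance trend (0.0910). Ezh2, the main methyltransferase of dividing cells, was 1766 ± 62.4 and 1820 ± 26.1 and did not pass (adjusted p = 0.485).

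Genes reported elsewhere as targets of HOXA9 and MEIS1 moved in both directions: of 11 tested, 4 rose, 4 fell and 3 did not pass, a share of 72.7% called against 41.1% of all genes, with a median of -0.04. The list was chosen with earlier results of these data known, so its share called is no test of the list. Cd34, Sox4, Trib2 and Erg rose, with log2 fold changes of 2.49, 0.79, 0.60 and 0.22, and Lmo2, Bcl2, Pf4 and Myb fell, with -0.72, -0.47, -0.43 and -0.22. Trib2, a pseudokinase that drives loss of C/EBP-alpha protein, was 295, 249 and 285 with DMSO and 408, 437 and 406 with GSK-LSD1. The survival gene Bcl2 was 248, 232 and 222 with DMSO and 152, 164 and 193 with GSK-LSD1. For both the groups were apart. The call of Pf4 was lost without any one of 5 libraries, the exception being DMSO replicate 2 (adjusted p = 0.0612 to 0.129), with the same total per library (0.0552) and without the filter on low values (0.0706). Flt3, a receptor gene induced by MEIS1 and named after its values were seen, had a mean of 0.332 ± 0.575 with DMSO and 2.02 ± 0.0645 with GSK-LSD1, below the filter.

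Of 12 tested stem cell genes that tend to accompany these factors, 3 rose, 6 fell and 3 did not pass, with a median of -0.15. The share called was 75% against 41.1% of all genes, and this list too was chosen with earlier results known. Without the mean-variance trend 2 rose and 4 fell, and without GSK-LSD1 replicate 1 the numbers were 3 and 4. Hlf fell by 0.14 on the log2 scale (adjusted p = 0.0455 by limma) and was called in 6 of 14 alternatives. Procr, which encodes the endothelial protein C receptor, a stem cell surface marker, rose from 47.7 ± 0.840 to 272 ± 32.1 (log2 fold change 2.48, adjusted p = 1.44e-18 by limma). Slamf1, which encodes CD150, another such marker, fell from 145 ± 23.9 to 63.4 ± 8.75 (log2 fold change -1.17, adjusted p = 1.97e-08). Mycn fell by 1.14, Angpt1 by 0.45 and Adgrg1 by 0.38 on the log2 scale, while Gata2, a reported target of MECOM, rose by 0.15 and Etv6 by 0.21. The call of Gata2 was lost without the mean-variance trend (adjusted p = 0.0547).

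**Figure D5:**
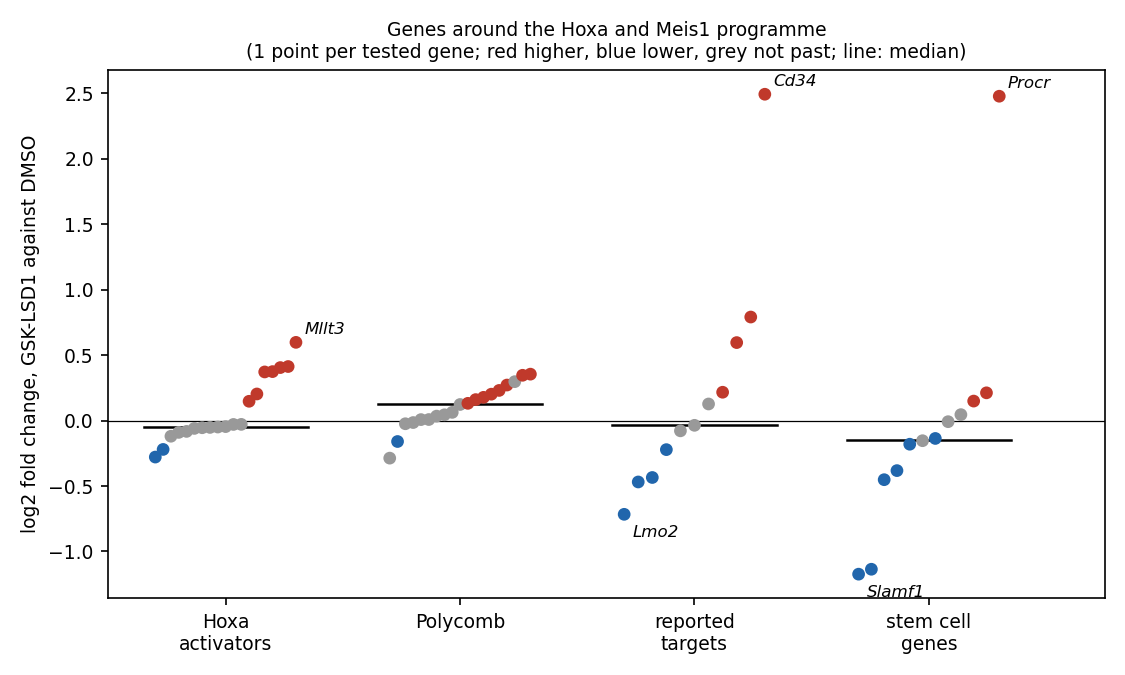
Log2 fold change (vertical axis) of each tested gene among Hoxa activators, Polycomb genes, reported HOXA9 and MEIS1 targets and accompanying stem cell genes, with genes past the threshold in red (higher) or blue (lower) and list medians as lines. The medians lie between -0.15 and 0.12, while single genes reach 2.49 (Cd34) and -1.17 (Slamf1).

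Likeness to each tested member was measured as the root mean square difference of centred log2(value + 1) over the 6 libraries. The nearest genes to Pbx2 were Eml4, Rpa1 and Ubqln1, at 0.00614, 0.0107 and 0.0131. The nearest to Mecom were Nfrkb, Dscr3 and Vamp2, at 0.0293, 0.0307 and 0.0311, and the nearest to Pbx3 were Tgds, Acbd4 and Aph1b, at 0.0399, 0.0514 and 0.0542. None of these 9 genes passed the threshold, with log2 fold changes between -0.03 and 0.09. Fold changes near those of the members follow from this choice, since the likeness includes the difference between the groups.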

How the data were processed

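RNA-seq of 6 libraries was analysed, 3 with DMSO and 3 with GSK-LSD1, grouped by their titles. The authors deposited a normalised signal, 1 value per gene and library. From the values, these look like read counts divided by a factor per library: every value was a whole multiple of 1 step, within a tolerance of 0.01. In DMSO replicates 2 and 3 the step is too near 1 to be told from rounding, so numbers of reads, and the Meis1 read ratio, are inferred from the steps. The submitters' processing notes name STAR and DESeq2 and the builds GRCm38 and mm10 but give no roles or versions. How reads were counted, on which annotation and with or without strand, is not given in the sources used here. No count test was run, since the values are not counts.

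Limma 3.58.1 in R 4.3.3 was fitted to log2(value + 1) of 11588 rows with a mean-variance trend and no replicate term, two-sided; 3447 rows were below the filter, and 22 rows carried dates in place of symbols and are not named. A simulation was also run, with the same spread setting for every gene and far fewer changed genes than called here. It therefore does not check the test for data like these. Exact permutation tests used SciPy 1.17.1. Positions and exon lengths are from GENCODE release M21 (GRCm38). Named genes were all members, up to 4 genes per direction from each list, every gene of lists with at most 8 tested genes, markers, and the 3 nearest profiles. Not every such gene is printed. Members and lists were chosen with earlier results of these data known. Alternatives covered scaling, pseudocount, filter, trend, a replicate block and leaving out each library.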

Additional observations from a re-analysis of the deposited data

How the results depend on the processing

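Under the alternatives run, 0 members passed the threshold in either direction, and Pbx2 kept its sign in all 14 of its alternatives. With the same total per library the log2 fold change of Mecom turned to 0.019. Leaving out single libraries gave a range of -0.067 to 0.075 for Mecom, -0.19 to 0.10 for Pbx3, 0.07 to 0.10 for Pbx2 and 0.88 to 1.87 for the untested difference of Meis1, and the cause was not tested. The calls over all genes stayed within 1.5 times, at 2056 to 2363 higher and 1961 to 2289 lower without single libraries. Same-numbered libraries had correlations across genes of -0.0241, -0.0276 and -0.00771 in their deviations from group means. Differently numbered libraries had -0.00662 to 0.0305. With 3 libraries per group these values cannot decide whether the numbers mark a shared culture or day. With the replicate block 2345 genes were higher and 2316 lower, and the members stayed at 0.08 (Pbx2), -0.03 (Pbx3) and 0.00 (Mecom). The exact permutation test cannot pass 0.05 with 3 against 3. Meis1 and the Hox genes other than Hoxb4 are limited by depth, Hoxb3 at 3 to 21 reads per library and most of the others at a few. Counting the wider gene lists under these same settings was chosen after seeing the data.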

Other observations

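The genes next to the Hoxa cluster on mouse chromosome 6, named after their values were seen, were well expressed on both sides of it. On one side, Skap2, an adaptor of myeloid integrin signalling, was 510 ± 14.4 with DMSO and 591 ± 61.1 with GSK-LSD1, and its groups overlapped (adjusted p = 0.0152 by limma). Snx10, a sorting nexin gene further out, rose from 585 ± 38.6 to 757 ± 20.7 (adjusted p = 7.49e-06). On the other side, Hibadh, an enzyme gene of valine breakdown, fell from 689 ± 55.7 to 591 ± 21.5 (adjusted p = 0.00585), while Tax1bp1 was 5678 ± 313 and 5292 ± 160 and did not pass. Between them, the Hoxa antisense transcript Hotairm1 had means of 0.330 and 0.690. Pbxip1, which encodes a protein that binds PBX proteins and was also named after its values were seen, rose from 857 ± 33.3 to 1051 ± 52.6 (log2 fold change 0.29, adjusted p = 5.77e-05 by limma). The calls of the genes in this paragraph were not looked at under the alternatives.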
